A study of Mus musculus with 8 samples.

Results

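Semaphorins are a family of secreted and membrane-bound guidance proteins that share a sema domain, and many of them repel growing axons. Plexins are their main receptors, whose cytoplasmic part acts on small GTPases of the Ras and Rap families, and neuropilins are co-receptors that hold most secreted class 3 semaphorins to A plexins. Sensory neurons of the dorsal root ganglion carry these receptors while their axons find their targets, and members of the family are known in adult ganglia and nerve after injury. The genes described here are all rows of the count table whose symbol is Sema followed by a digit, starts with Plxn, or equals Nrp1 or Nrp2. There are 32 of them among 24033 gene rows: 20 semaphorins, 9 plexins, 2 neuropilins and Plxna4os1, an antisense transcript at Plxna4 that the symbol rule takes in.

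The samples are lumbar dorsal root ganglia of levels L4 to L6 from mice whose sciatic nerve was crushed on 1 side, taken 24 h later; the labels give no strain, age or sex. The injury group holds 4 libraries of ganglia from the crushed side and the naive group 4 libraries from the opposite side of injured mice, so naive does not mean an animal without surgery. Each repeat pooled ganglia of 2 mice, and the tissue is labelled as dissociated ganglia. Libraries were made from transcript 3′ ends, so a gene's count depends little on its length, and a level here is a TMM-scaled CPM, the count divided by the effective size of its library.

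Library totals ran from 15446931 to 29412510 counts. The 32 genes held 0.119% to 0.124% of the gene counts of a naive library and 0.127% to 0.135% of an injury library, without overlap. Naive replicate 1, the library with the fewest counts, stood apart on the second principal component of all tested genes (46.6, against -21.1 to 11.3 in the others). Results of the 32 genes that change without it are therefore given both ways, as are calls of related genes that are lost without it. The 8 neuron markers summed to 19140 to 24155 CPM, the 6 satellite glia markers to 1794 to 2220 CPM, the 6 Schwann cell markers to 729 to 1109 CPM, the 6 fibroblast markers to 157 to 326 CPM, and the 9 macrophage markers to 10.6 to 22.3 CPM over all libraries; the ranges of the groups overlapped in each list. Such sums are carried by the most abundant markers, and single markers did change. By edgeR, Slc17a6 (neurons), Glul (satellite glia) and Pdgfra (fibroblasts) were higher after injury (adjusted p = 0.0106, 6.37e-07 and 0.0287). Isl1 (neurons) was lower (edgeR adjusted p = 0.00212). No Schwann cell marker was called, with a median log2 fold change of -0.52 against -0.004 over all tested genes. In ganglia as a whole, a change in the number of cells of a type and a change in RNA per cell cannot be told apart.

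Of the 32 genes, 29 had enough counts to be tested, and 5 of these changed at an edgeR adjusted p under 0.05, adjusted over 13639 tested genes. Sema6a and Plxna4 were higher after injury, and Sema7a, Plxna3 and Plxnd1 were lower. Over all tested genes 12.6% were called, 8.12% higher and 4.47% lower; among the 29 the share called was 17.2%, 6.90% higher and 10.3% lower, which is 2 and 3 genes and near the background. An unadjusted p under 0.05 was reached by 8 of the 29, 27.6%, against 24.6% of all tested genes. The median log2 fold change of the 29 was 0.02, against -0.004 over all tested genes, with 15 values above 0 and 14 below. Scaling by library totals in place of TMM changed the split over all genes from 64.5% to 47.0% higher, and called the same 5 members with the same signs, plus Nrp2 as lower.

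**Figure D1:**
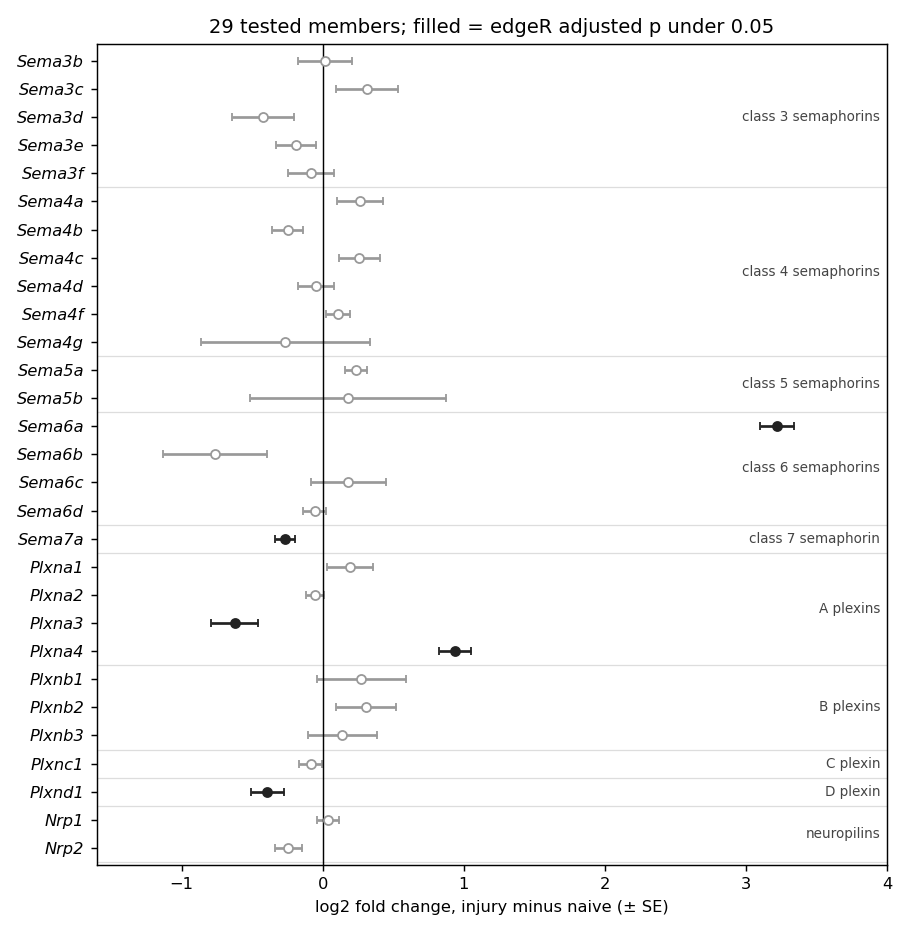
Log2 fold change (x axis, injury minus naive, with its standard error) of the 29 tested semaphorin, plexin and neuropilin genes, grouped by class; filled points passed an edgeR adjusted p of 0.05. Sema6a lies at 3.22 and Plxna4 at 0.94, Sema7a, Plxna3 and Plxnd1 lie below 0, and the other 24 points are open.

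The ligands are taken first. Class 6 semaphorins are transmembrane proteins that signal through A plexins, and Sema6a (chromosome 18, 47235598 to 47368870 on GRCm38, minus strand) is known as a ligand of plexin A2 and plexin A4. Its level was 19.0, 13.6, 16.3 and 13.5 CPM in the naive libraries, numbered 1 to 4, and 117, 142, 148 and 169.8 CPM in the injury libraries. The lowest injury library was several times above the highest naive one, and within the injury group replicate 1 was the lowest. The rise was 9.31-fold (log2 fold change 3.22 ± 0.12 SE; edgeR adjusted p = 1.23e-12), the 33rd largest among 13639 tested genes and the 3rd smallest adjusted p. It was called under all 16 alternatives tried, with log2 fold changes of 3.13 to 3.41.

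The other class 6 members did not pass the test. Sema6d, a ligand of plexin A1, had 65.0 ± 2.84 CPM (SD, n = 4) in naive and 62.6 ± 3.61 CPM in injury libraries, with a 95% interval of the log2 fold change of -0.22 to 0.11. Sema6b had 3.67 ± 1.14 and 2.14 ± 1.00 CPM, an estimate of -0.76 ± 0.37 on the log2 scale with an adjusted p of 0.204 by edgeR, and the groups overlapped because injury replicate 2 stood at 3.59 CPM. Sema6c had 5.81 ± 2.04 and 6.64 ± 1.57 CPM, and naive replicate 1 was its lowest library at 3.07 CPM. Sema6a was thus the 1 member of class 6 that passed.

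Shares of counts within a library do not depend on how libraries are scaled to each other. They sum to 100% within a class, so a larger share of 1 member lowers the shares of the others together. Sema6a made up 14.6% to 21.0% of class 6 counts in the naive libraries and 59.9% to 71.5% in the injury libraries, while Sema6d went from 69.7% to 74.8% down to 25.4% to 34.6%. The ratio of Sema6a to Sema6d counts was 0.301, 0.215, 0.252 and 0.195 in naive libraries 1 to 4 and 1.73, 2.40, 2.35 and 2.82 in injury replicates 1 to 4. Of all semaphorin counts together, Sema6a held 2.88% ± 0.50 (SD, n = 4) in naive and 21.6% ± 2.49 in injury libraries.

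The summed level of the 20 semaphorins was 543 ± 14.8 CPM in naive and 667 ± 28.1 CPM in injury libraries, without overlap (527 to 562 against 634 to 694 CPM). Without Sema6a the sum of the other 19 was 527 ± 15.4 and 523 ± 11.7 CPM, and the groups overlapped (513 to 549 and 511 to 538 CPM). These sums are descriptions with no test.

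**Figure D2:**
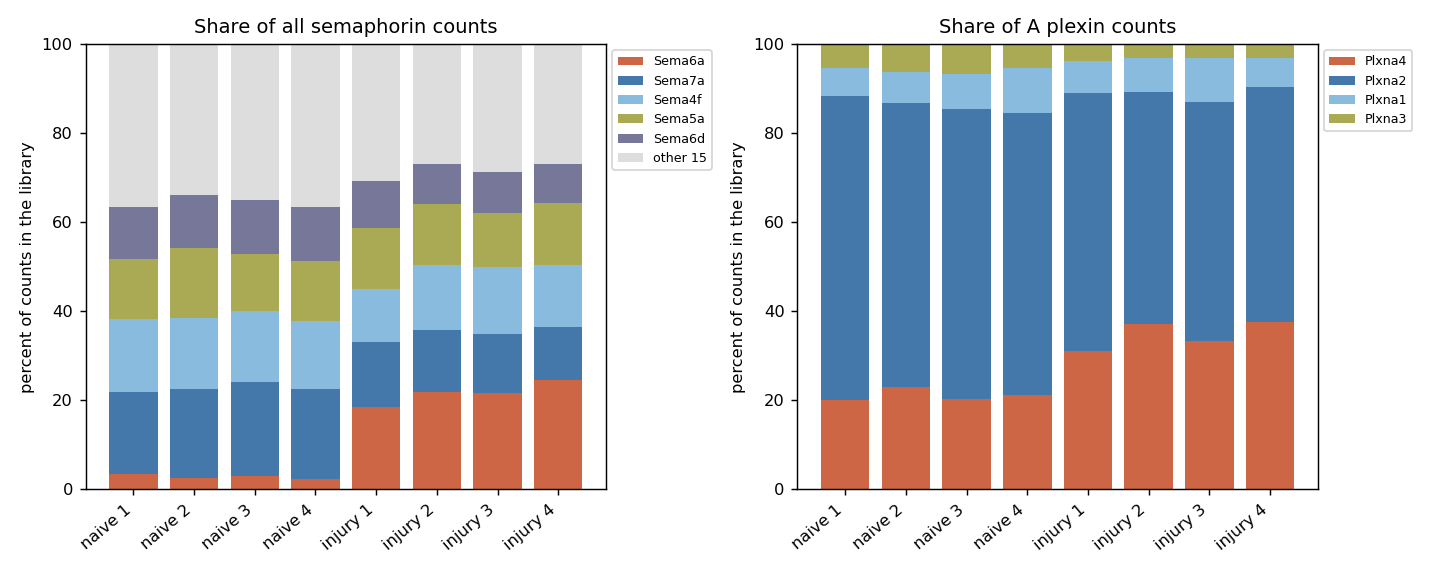
Left, percent of all semaphorin counts held by Sema6a, Sema7a, Sema4f, Sema5a, Sema6d and the other 15 genes in each library; right, percent of A plexin counts held by each A plexin. The Sema6a part grows from 2.40% to 3.50% in naive libraries to 18.4% to 24.5% in injury libraries, and the Plxna4 part from 20.1% to 23.05% to 31.0% to 37.6%.

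Sema7a (chromosome 9, 57940112 to 57962865) encodes a semaphorin held to the membrane by a lipid anchor, a ligand of plexin C1 and of integrins that hold the beta 1 chain, known to promote axon growth. It had 99.7, 105, 113 and 113 CPM in naive libraries 1 to 4 and 93.1, 90.8, 91.7 and 82.8 CPM in injury replicates 1 to 4. All injury libraries lay below all naive ones, by a margin that was small beside the level. The fall was 1.20-fold (log2 fold change -0.27 ± 0.07; edgeR adjusted p = 0.0143), and it missed the threshold without naive replicate 3, naive replicate 4 or injury replicate 4 (adjusted p of 0.0528, 0.0532 and 0.0589). Plxnc1, its plexin, had 185 ± 10.5 and 175 ± 24.4 CPM (adjusted p = 0.582 by edgeR), with a 95% interval of -0.25 to 0.08.

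Class 5 semaphorins are transmembrane proteins with thrombospondin repeats. Sema5a (chromosome 15, 32244810 to 32696341) had 73.5, 83.3, 69.1 and 74.9 CPM in naive and 86.3, 88.4, 83.2 and 96.8 CPM in injury replicates 1 to 4. Naive replicate 2 and injury replicate 3 met at about the same level, and the other libraries were parted. The estimate was 1.18-fold (log2 fold change 0.24 ± 0.08) with an edgeR adjusted p of 0.0525, just over the threshold; DESeq2 gave 0.0381, edgeR with a replicate block 0.0301, and edgeR without naive replicate 2 0.0333. Sema5b was near the limit of detection, with 3 to 26 counts in a library.

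None of the 6 class 4 semaphorins, transmembrane ligands mostly of B plexins, passed the edgeR test over all genes; Sema4b was the 1 with an unadjusted p under 0.05, and neither DESeq2 nor limma-voom called any (0 calls each). Sema4b (chromosome 7, 80186841 to 80226527) had 38.5, 35.2, 38.6 and 39.3 CPM in naive and 37.9, 26.1, 31.1 and 32.3 CPM in injury replicates 1 to 4. Injury replicate 1 sat at the naive level and the other injury libraries below it. The estimate was -0.25 ± 0.11 (edgeR adjusted p = 0.165), and 0.0401 without injury replicate 1. Sema4c, a ligand of plexin B2, had 24.4 ± 5.90 and 29.1 ± 4.38 CPM (adjusted p = 0.292 by edgeR), and naive replicate 1 at 33.0 CPM lay far above the other naive libraries (19.7 to 22.8 CPM). Without that library the edgeR adjusted p of Sema4c was 0.0303, with a log2 fold change of 0.44.

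The remaining class 4 genes had log2 estimates of 0.26 (Sema4a), 0.11 (Sema4f), -0.05 (Sema4d, the ligand of plexin B1) and -0.26 (Sema4g). Sema4f, at 86.2 ± 2.27 CPM in naive and 92.9 ± 12.1 CPM in injury libraries, spread more after injury, from 75.5 CPM in replicate 1 to 103 CPM in replicate 3. Sema4g had 10 to 26 counts in a library, too few to show any but a large change (95% interval -1.50 to 0.98).

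Class 3 semaphorins are secreted, and most need a neuropilin. Of 7, 5 were tested and none passed the edgeR test; the unadjusted p was under 0.05 in 0 of them, and neither DESeq2 nor limma-voom called any. Sema3d had 7.91 ± 1.80 CPM in naive and 5.89 ± 0.745 CPM in injury libraries (log2 estimate -0.42, 95% interval -0.88 to 0.03), and Sema3c had 7.84 ± 1.34 and 9.80 ± 2.97 CPM (0.32, interval -0.14 to 0.77). Sema3e, a direct ligand of plexin D1, had 19.0 ± 1.75 and 16.6 ± 2.46 CPM with an interval of -0.48 to 0.10. Sema3f, a repellent that acts through neuropilin 2, had 17.0 ± 1.66 and 16.1 ± 3.91 CPM. Sema3b was at 22.6 to 27.7 CPM in naive replicates 1 to 3 and at 43.1 CPM in naive replicate 4, against 24.8 to 36.2 CPM after injury.

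Sema3a, the classic repellent of sensory axons, and Sema3g were too low to test. Sema3a had 29, 7, 0 and 8 counts in naive and 0, 9, 7 and 0 counts in injury replicates 1 to 4. Sema3g had 17, 0, 1 and 8 counts in naive and 0, 0, 7 and 4 counts in injury replicates. For both genes the highest count was in naive replicate 1, although that library was the shallowest. A count of 0 allows up to 3 counts, which is 0.102 to 0.195 CPM before TMM scaling depending on the library; this covers counting error only, and no change in these genes was detectable at this depth. Plxna4os1 had 5 counts in the naive libraries together and 0 in the injury libraries, beside 13087 counts of Plxna4 in all 8. GENCODE also lists exons on the opposite strand that share 970, 334, 257 and 110 bases with exons of Plxna1, Sema4c, Plxnb1 and Plxna4; since it is unknown here whether strand was used in counting, these 4 counts are uncertain to that extent. On the same strand, other entries share 115, 80 and 73 exon bases with Plxnc1, Nrp1 and Sema4a, which could affect their counts under any strand setting.

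Among the receptors, A plexins moved in both directions. Plxna4 (chromosome 6, 32144268 to 32588192, minus strand) encodes a receptor that works with neuropilin 1 for Sema3A and alone for class 6 semaphorins. It had 45.4, 61.9, 53.2 and 54.5 CPM in naive and 82.2, 121, 95.3 and 113 CPM in injury replicates 1 to 4. The groups did not overlap, and replicate 1 was the lowest library in each group. The rise was 1.91-fold (log2 fold change 0.94 ± 0.11; edgeR adjusted p = 6.80e-06) and was called under all 16 alternatives, with adjusted p of at most 0.000122.

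Plxna3 (chromosome X, 74329066 to 74344689), a partner of neuropilin 2 for Sema3F, went the other way. It had 11.98, 16.9, 17.8 and 13.8 CPM in naive and 9.96, 10.2, 9.35 and 9.81 CPM in injury replicates 1 to 4. The injury libraries lay close together and all below the naive ones, which spread more. The fall was 1.54-fold (log2 fold change -0.62 ± 0.16; edgeR adjusted p = 0.0116); without naive replicate 3 the adjusted p was 0.0595, and the call was made under the other 15 alternatives.

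Plxna2, the other receptor of Sema6A, had 165 ± 8.02 and 159 ± 7.35 CPM, with a 95% interval of the log2 fold change of -0.18 to 0.08, and Plxna1 had 20.03 ± 4.89 and 23.0 ± 4.22 CPM. Plxna4 held 21.1% ± 1.37 of A plexin counts in naive and 34.7% ± 3.19 in injury libraries, while Plxna2 held 65.1% ± 2.22 and 54.1% ± 2.69 and Plxna3 5.94% ± 0.723 and 3.35% ± 0.273; none of these 3 shares overlapped between groups. The 3 are not independent, since shares in a class sum to 100%, and the level of Plxna2 itself overlapped between groups. The count ratio of Plxna4 to Plxna2 was 0.295 to 0.362 in naive and 0.534 to 0.715 in injury libraries. The count ratio of Sema6a to Plxna4 went from 0.219 to 0.419 in naive to 1.17 to 1.55 in injury libraries.

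Plxnd1 (chromosome 6, 115954811 to 115995005, minus strand), the receptor of Sema3E, best known from blood vessels, had 37.5, 36.4, 40.8 and 37.1 CPM in naive and 31.3, 24.0, 34.2 and 26.0 CPM in injury replicates 1 to 4. The groups did not overlap, and the injury libraries spread over a wider range than the naive ones. The fall was 1.31-fold (log2 fold change -0.39 ± 0.12; edgeR adjusted p = 0.0240). It was not called without naive replicate 3, injury replicate 2 or injury replicate 4 (adjusted p of 0.0819, 0.105 and 0.0873). The 8 endothelial markers summed to 164 to 201 CPM in naive and 179 to 253 CPM in injury libraries. Their median log2 fold change was 0.21, against -0.004 over all tested genes. None of them passed the edgeR test, and DESeq2 and limma-voom made 0 calls. By edgeR, 1 of the 8 had an unadjusted p under 0.05, with a higher level after injury, against 24.6% of all tested genes in either direction.

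The 3 B plexins, receptors of class 4 semaphorins, had 25 to 173 counts in a library, and none passed the edgeR test (the unadjusted p was under 0.05 in 0 of them, and neither DESeq2 nor limma-voom made a call). Plxnb1 had 3.23 ± 1.16 and 3.94 ± 0.504 CPM, Plxnb2 5.89 ± 0.970 and 7.28 ± 0.654 CPM, and Plxnb3 5.09 ± 0.716 and 5.61 ± 1.24 CPM in naive and injury libraries. Their log2 estimates were all above 0, from 0.14 to 0.31, and each 95% interval included 0.

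Of the neuropilins, Nrp1, which binds Sema3A and VEGF, had 109 ± 10.4 CPM in naive and 112 ± 5.16 CPM in injury libraries, with a 95% interval of -0.12 to 0.19. Nrp2 (chromosome 1, 62703285 to 62818695), which binds Sema3F, had 47.4, 43.3, 46.7 and 43.6 CPM in naive and 39.3, 34.1, 39.9 and 39.7 CPM in injury replicates 1 to 4. All injury libraries were lower than all naive ones, with injury replicate 2 set apart below the rest. The estimate of -0.24 ± 0.10 did not pass over all genes (edgeR adjusted p = 0.105); with library totals it did (0.0407). Of neuropilin counts, Nrp1 held 66.5% to 72.4% in naive and 73.2% to 76.8% in injury libraries. With Nrp2, 6 of the 29 tested genes, 20.7%, had groups that did not overlap, against 16.8% of all tested genes.

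**Figure D3:**
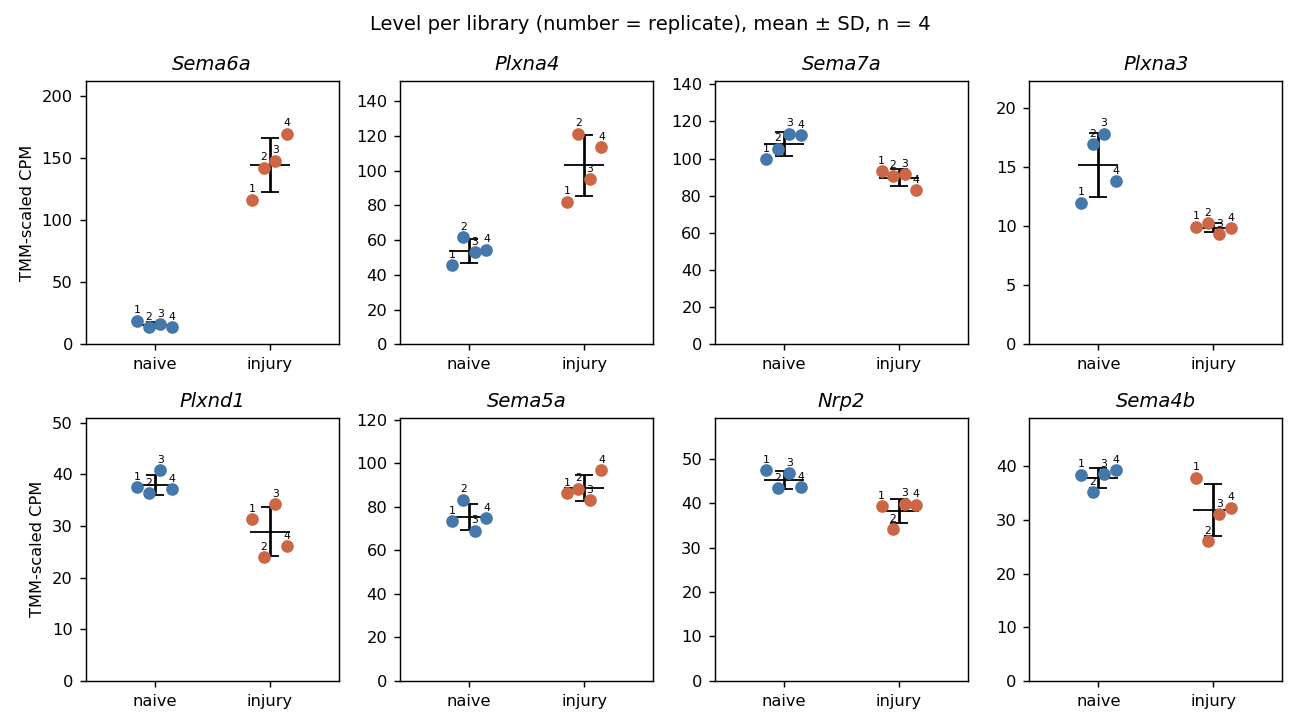
TMM-scaled CPM (y axis, from 0) in each library for the 5 genes called and the 3 others with an unadjusted p under 0.05; points are libraries numbered by replicate, and bars are mean ± SD (n = 4). Sema6a and Plxna4 are parted widely, Sema7a, Plxna3, Plxnd1 and Nrp2 narrowly, and Sema5a and Sema4b overlap.

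The 3 genes that fell are shown with the bases before their start, since the fall is the direction they share and a RefSeq promoter was at hand for each. The windows end at the base before the RefSeq start (GRCm38.p6), are written 5′ to 3′ on the gene's strand, and have CG pairs in capitals.
Plxna3, chrX:74328816-74329065, plus strand: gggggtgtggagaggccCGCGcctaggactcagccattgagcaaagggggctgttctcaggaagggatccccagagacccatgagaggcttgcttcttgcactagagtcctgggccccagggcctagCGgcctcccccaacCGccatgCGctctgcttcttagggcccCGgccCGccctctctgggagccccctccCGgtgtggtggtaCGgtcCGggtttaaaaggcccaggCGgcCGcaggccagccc
Plxnd1, chr6:115995006-115995255, minus strand: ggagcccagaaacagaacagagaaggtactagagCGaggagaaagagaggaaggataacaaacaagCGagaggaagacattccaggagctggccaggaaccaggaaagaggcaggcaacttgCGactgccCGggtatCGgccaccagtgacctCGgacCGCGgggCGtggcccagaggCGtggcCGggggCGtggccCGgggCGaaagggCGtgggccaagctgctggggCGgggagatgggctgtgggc
Sema7a, chr9:57939862-57940111, plus strand: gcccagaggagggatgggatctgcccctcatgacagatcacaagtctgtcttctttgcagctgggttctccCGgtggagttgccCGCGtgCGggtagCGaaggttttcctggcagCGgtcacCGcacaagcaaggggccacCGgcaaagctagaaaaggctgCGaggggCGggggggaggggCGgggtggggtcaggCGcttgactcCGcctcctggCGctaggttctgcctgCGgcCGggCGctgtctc
These windows of 250 bases hold 12, 16 and 17 CG pairs for Plxna3, Plxnd1 and Sema7a, against a median of 6 over 32851 RefSeq mouse promoters (quartiles 2 and 16), and their G and C content is 68.0%, 64.8% and 66.4% (median of all 52.4%). Windows of other members ran from 40.8% (Sema3a) to 78.4% (Sema3c), with Plxnc1, which was not called, at 68.8%. Such content is thus not particular to the genes that fell. The letters TGANTCA (AP-1), TGACGTCA (ATF/CRE) and TTCNNNGAA (STAT), sought on both strands, were in none of the 3 windows. Over the 37 windows of the 26 members with an entry, TGANTCA was found at a start of Sema4c, Sema4d and Sema6b, TGACGTCA and TTCNNNGAA at none; of all promoters 6.75%, 1.55% and 7.02% held these letters. The members called higher, Sema6a and Plxna4, were not among these 26 and were not searched. Plxna1, Sema3b, Sema3f and Plxna4os1 were also without a window. A match or its absence in a window is a description only.

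Beyond the family, genes that act beside or below plexins were read from 5 lists. Over all tested genes 8.12% were called higher and 4.47% lower by edgeR, with a median log2 fold change of -0.004, and the edgeR count of each list lies within 2 genes of what these shares give for its size. Of the same 13639 genes, DESeq2 called 1225 higher and 810 lower, and limma-voom 1096 higher and 600 lower. Of 14 co-receptors and plexin-free semaphorin receptors, 12 were tested, 2 were higher and 0 lower by edgeR, DESeq2 and limma-voom alike (0 lower at an unadjusted p under 0.05), with a median log2 fold change of 0.16. Chl1, an adhesion molecule of the L1 family and a partner of neuropilin 1, had 176, 181, 189 and 183 CPM in naive and 284, 357, 291 and 365 CPM in injury replicates 1 to 4 (log2 fold change 0.83 ± 0.07; edgeR adjusted p = 2.04e-08). Itgb1, the integrin beta 1 chain that takes part in Sema7A reception, rose from 240.0 ± 13.8 to 341 ± 22.7 CPM (adjusted p = 2.15e-06 by edgeR). L1cam and Nrcam, of the same adhesion family as Chl1, did not pass, at 0.05 and 0.16 on the log2 scale.

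Of 18 small GTPases and exchange factors, 17 were tested, 2 were higher and 0 lower by edgeR (median 0.07; 4 higher and 0 lower by DESeq2 and by limma-voom). At an unadjusted p under 0.05 by edgeR there were 4 higher and 0 lower of 17, against 24.6% of all tested genes in either direction. Rras2, an R-Ras relative of the kind plexins act on, rose 3.19-fold, with 10.5, 8.92, 7.23 and 10.9 CPM in naive and 26.1, 31.6, 31.5 and 30.9 CPM in injury replicates 1 to 4 (edgeR adjusted p = 1.08e-08). Rap1b, a Rap GTPase whose inactivation plexins promote, rose from 120 ± 2.03 to 179 ± 28.3 CPM (adjusted p = 4.80e-05 by edgeR). Rnd1 was 2.03-fold higher but was not called (edgeR adjusted p = 0.0629). Its groups overlapped through naive replicate 1, at 9.91 CPM against 2.28 to 5.28 CPM in the other naive libraries. The injury libraries had 8.78 to 14.4 CPM.

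Of 18 CRMPs, MICALs, kinases and actin regulators, all tested, 3 were higher and 1 lower by edgeR and by limma-voom, and 4 higher and 1 lower by DESeq2 (median 0.09; 5 higher and 2 lower at an unadjusted p under 0.05 by edgeR). Crmp1, a collapsin response mediator, rose from 128 ± 7.36 to 160.3 ± 15.3 CPM, and Cdk5r1, the p35 activator of the kinase Cdk5, fell from 256 ± 16.1 to 172 ± 11.3 CPM (edgeR adjusted p = 0.00324 and 5.89e-07). The calls of Gsk3b and Flna, 1.22-fold and 1.31-fold higher, were lost under 9 and 7 of 16 alternatives. The log2 fold change of Gsk3b was 0.29 with and without naive replicate 1, and without that library its edgeR adjusted p went from 0.0275 to 0.0766. Of the 8 VEGF ligands and receptors that share neuropilins, Pgf alone was called, falling from 10.6 ± 1.23 to 6.41 ± 1.06 CPM (edgeR adjusted p = 0.0149; 0.0577 without naive replicate 3). Of 7 proteases that process semaphorins or neuropilins, Adamts1 alone was called, rising 1.58-fold (edgeR adjusted p = 0.000137), while Furin, which cleaves class 3 semaphorins, had 41.9 CPM in naive and 44.95 CPM in injury libraries.

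**Figure D4:**
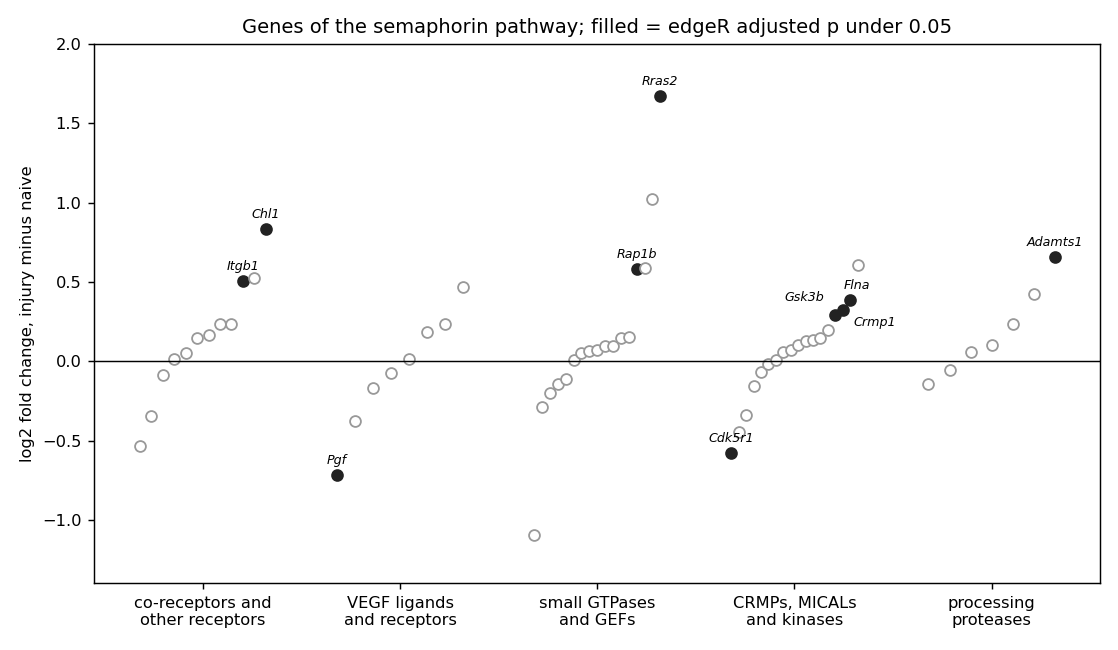
Log2 fold change (y axis, injury minus naive) of the tested genes of 5 lists of plexin partners and downstream genes; filled points passed an edgeR adjusted p of 0.05 and are named. Rras2 lies highest at 1.67, Pgf lowest of the called genes at -0.72, and most points of each list are open.

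The calls differed in how far they held under other processing. Sema6a and Plxna4 stayed called throughout, while each of Sema7a, Plxna3 and Plxnd1 lost its call without at least 1 library; without naive replicate 3 none of the 3 was called, and their log2 fold changes were then -0.25, -0.55 and -0.37.

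**Figure D5:**
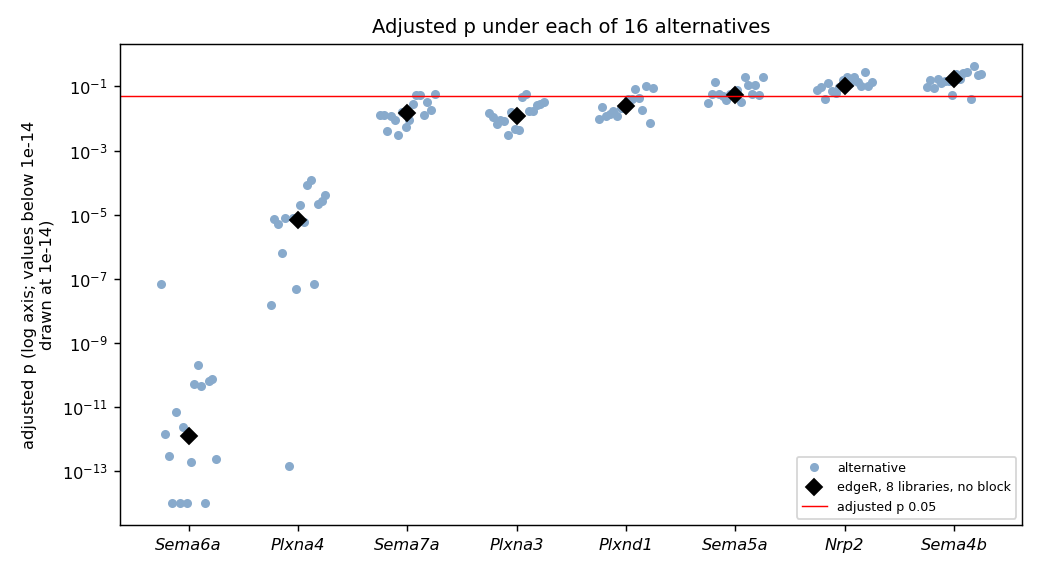
Adjusted p (y axis, log scale) of 8 genes in the edgeR fit of all 8 libraries (diamonds) and under 16 alternatives (circles), with the threshold of 0.05 as a line. Sema6a and Plxna4 lie below the line throughout, the 3 genes that fell lie near it, and Sema5a, Nrp2 and Sema4b cross it under 3, 1 and 1 alternatives.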

How the data were processed

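The deposited table holds counts per gene symbol and library, which were taken as raw counts. Per the labels' protocols, RNA was purified on RNeasy Mini columns and sequenced as QuantSeq 3′ mRNA libraries (REV); the tools named in the submitters' processing notes are bcl2fastq 2.17, STAR and HTSeq, and the build is GRCm38 (mm10). The annotation and the strand setting were not given in the sources used here. Of 24060 rows, 27 whose symbol had become a date (0.146% to 0.158% of counts) were left out.

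edgeR 4.0.16 (R 4.3.3; filterByExpr, TMM, robust quasi-likelihood test) set 4 injury against 4 naive libraries; adjusted p is Benjamini-Hochberg over 13639 genes. Standard errors were derived from the fold change and the F statistic, and 95% intervals use the fit's degrees of freedom. The test was checked on simulated data. The biological coefficient of variation was 17.1%; pairs of replicates differed by more than counting noise (chi-square over its degrees of freedom 8.09 to 19.2). Each library pooled 2 mice; the labels do not say that repeats used different mice, so p-values measure the spread between these libraries.

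Members and lists were chosen with earlier results of these data known. Every member is reported; those called, or with an unadjusted p under 0.05 and a mean of at least 1 CPM, are given in full, and from each list up to 4 called genes with the smallest p. L1cam, Nrcam, Rnd1 and Furin fall outside this rule. Positions are from GENCODE M21. The alternatives tried were library totals, DESeq2 size factors, a replicate block, 2 other filters, DESeq2 1.42.0, limma-voom (limma 3.58.1), each library left out, and both libraries of number 1 left out.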

Additional observations from a re-analysis of the deposited data

Results flagged for a closer look

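Nrp2 was flagged for a single library within its group. Injury replicate 2 had 34.1 CPM, against 39.3 to 39.9 CPM in the other injury libraries, a gap of 0.904 of the group's range (Dixon's limit for 4 samples is 0.829). It was the only one of 58 member-by-group sets flagged, where chance flags about 1 in 20.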

How the results depend on the processing

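Sema6a and Plxna4 kept direction and call under all 16 alternatives. The number of members called higher was 2, and 2 to 3 when a library was left out; the number lower was 3, and 0 to 4 when a library was left out (0 without naive replicate 3, 1 without injury replicate 4). Related-list genes called were 8 higher (6 to 9 with a library left out) and 2 lower (1 to 3). Over all genes 1108 were higher and 609 lower (847 to 1156 and 452 to 703 with a library left out); library totals gave 888 and 1001. With both libraries of number 1 left out, 3 members were higher, Sema4c among them (adjusted p = 0.0114), and 3 lower. No called member changed sign.

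The replicate block called 3 members higher, adding Sema5a (adjusted p = 0.0301), the same 3 lower, 12 list genes higher, and 1245 and 779 genes overall. Same-numbered libraries correlated at 0.0352 to 0.0569 in their deviations from the group means (other pairs -0.0840 to 0.0378), and 7 of 8 libraries correlated best with their own number. The design allows such pairing, since naive ganglia came from the opposite side of injured mice. The labels do not say that equal numbers mark the same mice, so pairing was not taken as shown. Depth limits Sema3a, Sema3g, Sema4g, Sema5b and Plxna4os1.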
